A study of Oryctolagus cuniculus with 24 samples.

Results

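Rabbit peripheral blood mononuclear cells (PBMCs) stimulated for 4 h (T4) with the bacterial lipopolysaccharide LPS were compared with mock-stimulated PBMCs of the same animals. The comparison took the arrays whose labels give LPS or the control at T4, 4 arrays each, which made 8 of the 24 arrays of the study, and paired them by the rabbit number in their titles. The cells came from 4 adult females of the New Zealand White breed, called rabbits 1, 2, 4 and 5 here as in the titles, each of which gave a culture with LPS at 1 µg/mL and a culture with buffer alone. The other 16 arrays held PMA-Ionomycin cultures at T4 and all cultures of 24 h (T24) of the same rabbits, and they served here to estimate the spread and to set T4 beside T24. PBMCs are a mixture of lymphocytes, monocytes and a few other cells, so that fewer cells of a type and less RNA per cell cannot be told apart in these values.

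LPS is the glycolipid of the outer membrane of Gram-negative bacteria. CD14 on monocytes hands it to the receptor TLR4, which holds it with LY96 (MD-2) and signals through the adaptor MYD88 to NF-kappaB, whose early targets include genes for inflammatory cytokines and chemokines and for the inhibitors that end the signal. Among PBMCs, monocytes carry most CD14 and TLR4, and they are also rich in lysosomes, actin regulators and integrins.

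RNA of each culture was measured on its own one-colour array, where each probe is a DNA strand of 60 bases. A level here is the log2 of the median spot signal minus the array's median over all non-control spots, so that 0 is the median spot of that array. A gene with several probes takes their mean. A log2 FC is the LPS level minus the mock level, and a gene was called differentially expressed (DE) when its adjusted p from limma, corrected by Benjamini-Hochberg over all 28774 genes tested, was under 0.05. Sequences of a few probes show what was read for genes on which the results turn. They are given as in the scanner files, on build oryCun2, and start at base 315 of the transcript of IL23A, 967 of that of CTSE, 1869 of CSF1R and 626 of IFNGR1; exon and UTR annotation was not used here. The probe of IL23A lies on the plus strand at chr4:39915840-39915899, that of CTSE on the plus strand at chr16:66255087-66255243, and those of CSF1R and IFNGR1 on the minus strand at chr3:31840703-31840762 and chr12:127597005-127597064. The CTSE probe covers 157 bases of the genome with 60 of its own, so that the probe joins stretches which the genome holds apart.
IL23A: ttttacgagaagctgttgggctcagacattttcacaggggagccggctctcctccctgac
CTSE: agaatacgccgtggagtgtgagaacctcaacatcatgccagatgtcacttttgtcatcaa
CSF1R: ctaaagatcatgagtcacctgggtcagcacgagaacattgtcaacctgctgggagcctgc
IFNGR1: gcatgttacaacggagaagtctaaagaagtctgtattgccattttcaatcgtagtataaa

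The arrays did not measure dim spots equally well. The share of spots well above background was 51.4 to 59.8% on the LPS arrays and 55.2 to 60.8% on the mock arrays, and it was lowest on the LPS array of rabbit 4, whose median signal was also the lowest of the 8. The 75th percentile of the levels was lower on the LPS array than on the mock array in all 4 rabbits, at 2.12 against 2.23, 2.04 against 2.28, 1.83 against 2.12 and 2.09 against 2.20 for rabbits 1, 2, 4 and 5. The arrays of the study lay on 3 slides, and only rabbit 4 had its LPS and mock arrays of T4 on the same slide. Markers of the cells that make up PBMCs were present: on all 4 mock arrays, 11 of 12 monocyte markers, 8 of 8 B cell markers, 10 of 12 T cell markers and 2 of 3 NK cell markers were well above background, although CD4, CD28 and KLRK1 were so on none of the 8 arrays.

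Of the 28774 genes, 1228 were called at T4 (4.27%). LPS cultures had higher levels of 86 (0.299%) and lower levels of 1142 (3.97%), so that 93% of the calls were decreases. Of the genes with a symbol, 25 were higher and 731 lower. The changes were moderate: the log2 FC of called genes ran from -1.77 to 2.55, and 258 of the decreases and 23 of the increases were at least 2-fold. The same direction was seen in all 4 rabbits for 1035 of the lower and 79 of the higher genes. The LPS levels lay entirely below the mock levels for 739 of the lower genes and entirely above for 41 of the higher ones. These counts of direction and overlap are descriptions, since the genes were called on the same arrays, which largely fixes them. The same counts over all genes are not given.

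The size of the difference varied between the 4 pairs of cultures. With 1 LPS and 1 mock array for each rabbit at T4, the animal and its arrays cannot be told apart, and the LPS array of rabbit 4 had the low signal given above. The median log2 difference of the called lower genes ran from -0.26 for rabbit 1 over -0.74 and -0.79 for rabbits 5 and 2 to -1.47 for rabbit 4, which gave the largest decrease for 983 of the 1142. The called higher genes had medians of 0.55, 0.79, 0.85 and 0.55 for rabbits 1, 2, 4 and 5. Without rabbit 2, or without rabbit 4, no gene was called by limma at the adjusted threshold, although 3988 and 3255 genes had an unadjusted p under 0.05, so that every call named here rests on both animals. All 1142 lower and all 86 higher genes kept their direction in both fits, which their choice on the same arrays largely fixes, with medians of -0.83 and 0.67 without rabbit 2 and of -0.60 and 0.65 without rabbit 4, against -0.83 and 0.69 with all rabbits. Without rabbit 5, 188 genes were called. The fit on the 8 arrays alone called none, with 4310 genes at an unadjusted p under 0.05, and a fit without the rabbit as a block called 295, all of them among the 1228.

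The share of decreases moved with the scaling and with the brightness of the genes. After quantile normalization 649 of 844 called genes were lower, after normexp correction 594 of 731, and with the processed signal 53 of 71. All 1142 lower and all 86 higher genes kept their sign under these scalings and in the deposited log2 table. Their choice on the same arrays largely fixes this, since the scalings treat the same spots. Over all genes the median log2 FC was 0.058, and 0.22 with the processed signal. With genes divided into 4 equal bins by their mean level over the 24 arrays, the brightest bin held 725 of the called lower genes (10.1% of its genes) and the dimmest none, and the median log2 FC went from 0.13 in the dimmest to -0.11 in the brightest bin. In rabbits 2 and 4 the dimmest bin had medians of 0.35 and 0.28, and in rabbits 1 and 5 of -0.051 and -0.056. After quantile normalization the median log2 FC was 0.0072 in the dimmest and 0.054 in the brightest bin. These medians were 0.0055 and 0.025 after normexp correction, and 0.35 and 0.11 with the processed signal. The part of the slope between bins in the calls was not tested. Within slides, the difference of the mean LPS and mean mock level was below 0 for 93.4, 100 and 98.6% of the called lower genes on slides 1, 2 and 3, against 31.0, 41.4 and 47.6% of all genes. This is a description, since the genes were chosen on the same arrays. With the slide as a further block 1459 genes were called, 161 higher and 1298 lower.

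**Figure D1:**
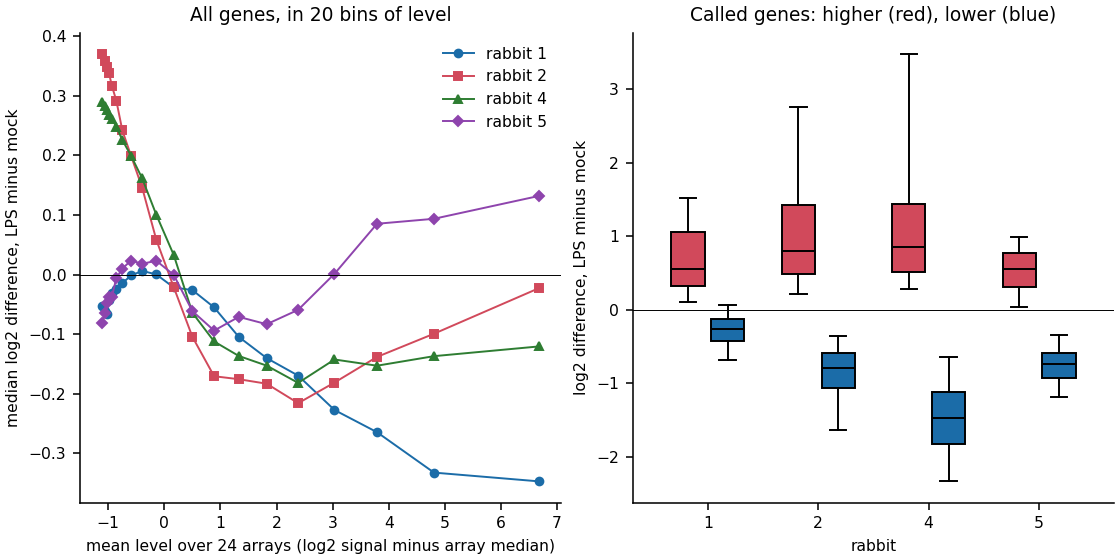
The left panel plots, for each rabbit, the median log2 difference between LPS and mock over all genes in 20 bins of equal size along the mean level of a gene over the 24 arrays. The right panel shows the log2 differences of the 86 called higher (red) and 1142 called lower genes (blue) in each rabbit, with the median, the quartiles and whiskers at the 5th and 95th percentiles; rabbit 4 lies lowest for the lower genes and rabbit 1 nearest to 0.

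Among the called genes with a symbol, the cytokines IL6 and IL23A had the largest increases. Of 28 cytokine genes measured, 5 were called higher, IL6, IL23A, TNF, CSF3 and IL12A, and 2 lower, IL15 and IL16. Of all genes tested 0.299% were called higher and 3.97% lower, and of the genes with a symbol, beside which the count of each list stands, 0.264% and 7.72%. The share of cytokines called lower, 7.14%, was near that background. The median log2 FC of the list was 0.16, beside 0.058 over all genes tested, and 0.47 beside 0.22 with the processed signal. CSF3 (G-CSF), the growth factor of neutrophils, had a log2 FC of 1.40 ± 0.36 (SE), higher in 3 of the 4 rabbits. IL15, which sustains NK and memory T cells, had -1.16 ± 0.30, and IL16, which attracts CD4 cells, -0.98 ± 0.23, both lower in all 4.

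IL6, a cytokine of fever and the acute phase, had mock levels of 6.78, 5.66, 3.50 and 5.62 in rabbits 1, 2, 4 and 5, and LPS levels of 8.09, 8.91, 8.15 and 6.61. It was higher with LPS in every rabbit, most in rabbit 4 and least in rabbit 5, and the groups overlapped because rabbit 1 had a high mock level and rabbit 5 a low LPS level. The log2 FC was 2.55 ± 0.53 (SE), or 5.86-fold, with an adjusted p of 0.0177. Its 5 probes gave log2 differences from 2.50 to 2.61, but they begin within 5 adjacent bases of the transcript and read nearly the same stretch.

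TNF, the early cytokine that activates endothelium and neighbouring leukocytes, was well above background in all mock cultures, with levels of 9.42, 8.79, 6.58 and 8.77. With LPS its levels were 10.61, 11.61, 10.43 and 9.32, a log2 FC of 2.10 ± 0.41 (SE) with an adjusted p of 0.0162. The mock culture of rabbit 4 was the lowest of the mock cultures for TNF, IL6 and F3 alike, and this rabbit then gave the largest increase of each.

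IL23A, the p19 chain that pairs with IL12B to form interleukin 23, read by the probe shown above, had mock levels of 3.70, 4.00, 2.57 and 5.55 and LPS levels of 6.04, 7.22, 6.05 and 5.60. The groups did not overlap, but in rabbit 5 the LPS and mock cultures differed by only 0.054, since its mock level was already near those of LPS cultures. The log2 FC was 2.27 ± 0.46 (SE), with an adjusted p of 0.0177. IL12A, the p35 chain of interleukin 12, had levels of 1.46, 0.48, 0.75 and 1.60 in mock and 2.15, 1.88, 2.94 and 2.08 in LPS cultures. The groups did not overlap, and the log2 FC was 1.19 ± 0.25 (SE, adjusted p = 0.0177). IL12B, the chain that both cytokines share, had 2 probes that differed. One was well above background on 0 mock and all 4 LPS arrays, and by the lowest signals that could be measured it was at least 2.61-fold higher with LPS. The other was so on 1 mock and 3 LPS arrays, with a log2 difference of 0.50, and the fit of the gene missed the threshold (adjusted p = 0.0797).

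IL1B and IL10 behaved otherwise. IL1B, the pyrogenic cytokine that the inflammasome matures, had mock levels of 9.12, 9.54, 8.81 and 9.52 and LPS levels of 9.63, 8.82, 8.15 and 8.54. It was higher only in rabbit 1, and the log2 FC of -0.46 ± 0.74 (SE) did not pass the test (adjusted p = 0.78). IL10, which restrains macrophage activation, had levels between -0.58 and 0.68 in mock cultures, and with LPS reached 2.13 in rabbit 1 but no more than 0.19 in the others, with a log2 FC of 0.49 ± 0.62 (SE, adjusted p = 0.722).

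Of 16 chemokine genes, CXCL11 alone was called, while 14 had a positive log2 FC, as did 17347 of the 28774 genes tested. The median of the list was 0.24, or 0.14 after quantile normalization and 0.79 with the processed signal. Over all genes tested these medians were 0.058, 0.028 and 0.22. CXCL11, an interferon-inducible ligand of CXCR3 that draws activated T cells, had mock levels of 2.25, -0.20, -0.13 and 0.65 and LPS levels of 2.87, 1.77, 3.01 and 1.5. It was higher in each rabbit, though the mock level of rabbit 1 was above the LPS levels of rabbits 2 and 5, and the log2 FC was 1.65 ± 0.40 (SE, adjusted p = 0.0244). CXCL10, which binds the same receptor, had a log2 FC of 1.26 ± 0.41 (SE) and missed the threshold (adjusted p = 0.0919), with a difference of 3.03 in rabbit 4 and -0.044 in rabbit 5.

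CXCL8 and CCL4, which draw neutrophils and monocytes, were well above background on all 8 arrays. CXCL8 had mock levels of 11.13, 10.72, 9.36 and 9.78 and LPS levels of 11.54, 11.75, 11.36 and 10.09, so that it was higher in every rabbit by 0.31 to 1.99. The log2 FC of 0.94 ± 0.61 (SE) did not pass the test (adjusted p = 0.472). For CCL4 the LPS levels lay close together, at 12.48, 12.54, 12.55 and 11.96, while the mock levels spread from 9.61 in rabbit 4 to 12.17 in rabbit 1, and the adjusted p was 0.458.

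**Figure D2:**
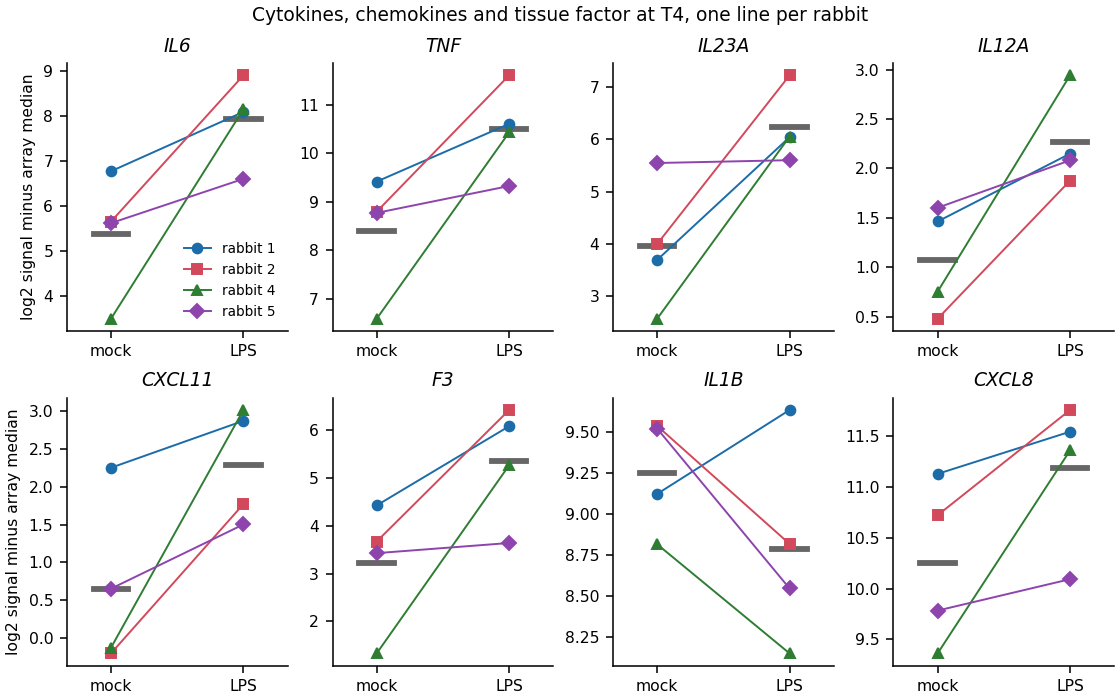
Levels of 8 genes (log2 signal minus the array median) in mock and LPS cultures at T4, with a line for each rabbit and a grey bar at the group mean. IL6, TNF, IL23A, IL12A, CXCL11 and F3 were called higher; IL1B was higher only in rabbit 1, and CXCL8 was higher in each rabbit but its log2 FC of 0.94 did not pass the test.

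The other called increases were few and mixed. F3, tissue factor, which starts the coagulation cascade, had mock levels of 4.43, 3.67, 1.33 and 3.43 and LPS levels of 6.08, 6.42, 5.27 and 3.64. The increase was small in rabbit 5 and large in rabbit 4, and its adjusted p of 0.0472 for a log2 FC of 2.14 ± 0.60 (SE) was close to the threshold. This call held in 5 of 16 alternatives, and not after quantile normalization, after normexp correction or with the processed signal. F3 was the only one of 14 measured coagulation, fibrinolysis and matrix protease genes called higher. SERPINB1 of the same list was called lower, at -1.24 ± 0.26 (SE, adjusted p = 0.0177), with a decrease in all 4 rabbits. NFKBIZ, a nuclear inhibitor and co-activator of NF-kappaB, was the only one of 13 feedback inhibitors called, with a log2 FC of 1.38 ± 0.34 (SE, adjusted p = 0.0272) and a negative difference in rabbit 5. NFKBIA, the inhibitor that NF-kappaB restores in a loop, was higher in each rabbit, but by only 0.038 in rabbit 5, and did not pass the test (log2 FC 0.67 ± 0.27 SE, adjusted p = 0.183). PELI1, an E3 ligase of the TLR pathway, had a log2 FC of 0.77 (adjusted p = 0.0454). Without the rabbit as a block the adjusted p was 0.0815 for IL6, 0.103 for TNF, 0.0541 for CXCL11, 0.259 for F3, 0.0751 for NFKBIZ and 0.186 for PELI1, and 0.103 for CSF3, and these calls were lost, while IL23A and IL12A stayed called at 0.0396 and 0.0479. PTGS2, the inducible cyclooxygenase, had 0.89 (adjusted p = 0.209).

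LMTK2, a membrane-bound kinase, and ZBTB10, a zinc finger protein, rose. LMTK2 had mock levels of 2.50, 2.77, 2.11 and 2.49 and LPS levels of 4.13, 4.58, 3.92 and 2.91, without overlap, and a log2 FC of 1.42 ± 0.22 (SE, adjusted p = 0.0101). ZBTB10 had a log2 FC of 0.95 ± 0.19 (SE, adjusted p = 0.0177), also without overlap. EPN2, an endocytic adaptor, EVA1B, a membrane protein, and BMP2, a ligand of the TGF-beta family, were called higher by 1.03, 1.06 and 1.21, calls that were lost without the rabbit as a block (adjusted p = 0.103, 0.0596 and 0.0871). Of the 86 called higher genes, 61 had no symbol here, and the files give no position for the probes of the 5 with the largest log2 FC among them.

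Some genes of the receptor side of the LPS response were lower with LPS. Of 22 genes of LPS recognition and MyD88 signalling, 6 were called lower, CD14, LY86, MYD88, TLR4, IRAK1 and TAB1, and PELI1 was called higher. The share called lower was 27.3%, against 7.72% of genes with a symbol. The median of this list, -0.15, lay closer to 0 than the values of its called members.

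CD14, the LPS co-receptor, had mock levels of 7.14, 7.40, 8.06 and 6.92 and LPS levels of 6.29, 5.22, 6.01 and 5.81. The groups did not overlap, and the decrease was about 1 in rabbits 1 and 5 and about 2 in rabbits 2 and 4. The log2 FC was -1.55 ± 0.26 (SE), that is 2.93-fold lower, with an adjusted p of 0.0101. TLR4, the signalling receptor, was lower by a more even amount, with differences of -1.34, -1.38, -1.12 and -0.68, but rabbit 5 had far lower levels than the other rabbits in both cultures, 3.15 in mock and 2.47 with LPS. Its log2 FC was -1.13 ± 0.20 (SE, adjusted p = 0.0142), a call lost without the rabbit as a block (adjusted p = 0.278).

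MYD88, the adaptor of TLR4 and of the interleukin 1 receptor, had mock levels of 3.25, 3.59, 3.72 and 3.33 and LPS levels of 2.50, 2.70, 1.26 and 2.66. The difference was -2.47 in rabbit 4 and between -0.89 and -0.67 in the others, and the log2 FC was -1.19 ± 0.23 (SE, adjusted p = 0.0151). LY86 (MD-1), the partner of the TLR4 homologue CD180, had -1.28 ± 0.33 (SE, adjusted p = 0.0309), with a slight increase in rabbit 1 and an adjusted p of 0.2 without the block. LY96, which binds LPS within the TLR4 complex, did not pass the test, with a log2 FC of -0.27 ± 0.24 (SE, adjusted p = 0.611). Under array weights its value was 0.11, with the opposite sign.

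Some transcription factors of these cells were lower. IRF5, which works with MYD88 to induce inflammatory cytokines, had a log2 FC of -0.99 ± 0.24 (SE, adjusted p = 0.0263) without overlap of the groups. It and MAP3K14, the kinase of the alternative NF-kappaB pathway, at -0.78, were the only called members among 12 NF-kappaB and IRF genes, of which 11 had a negative log2 FC. Of 14 myeloid lineage factors, 3 were called lower. SPI1 (PU.1), the master factor of monocytes and macrophages, had mock levels of 2.84, 3.63, 3.43 and 3.18 and LPS levels of 2.53, 2.43, 1.53 and 2.09, and a log2 FC of -1.13 ± 0.21 (SE, adjusted p = 0.0151). MITF, a factor of the family that drives lysosomal genes, had -1.33, and CEBPB -0.75. None of 13 immediate early factors was called by limma, where 7.72% of genes with a symbol were called lower and 0.264% higher.

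Some receptors for cytokines were lower as well. Of 29 receptors, 6 were called lower and none higher, a share of 20.7% against 7.72% of genes with a symbol. IFNGR1, the ligand-binding chain of the interferon gamma receptor, had mock levels of 3.73, 4.62, 4.37 and 4.17 and LPS levels of 2.94, 2.83, 1.31 and 3.04. The groups did not overlap, rabbit 4 stood below the other LPS cultures, and the log2 FC was -1.69 ± 0.37 (SE, adjusted p = 0.0202). Its 3 probes, at different places of the transcript, gave differences from -1.75 to -1.65. IFNGR2, the partner chain, had -1.10 ± 0.23 (SE, adjusted p = 0.0177).

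CSF1R, the M-CSF receptor on which monocytes depend, had mock levels of 0.37, 1.55, 2.41 and 0.33 and LPS levels of -0.28, -0.15, -0.46 and -0.23. The LPS levels lay close together whatever the mock level, near the lower end of what the arrays can measure, and 3 of the 4 LPS arrays read it well above background. The log2 FC was -1.44 ± 0.31 (SE, adjusted p = 0.0198). IL17RA had the smallest standard error of these receptors, with -0.88 ± 0.14 (SE, adjusted p = 0.0101), and CSF2RB and C5AR1 were called lower as well.

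**Figure D3:**
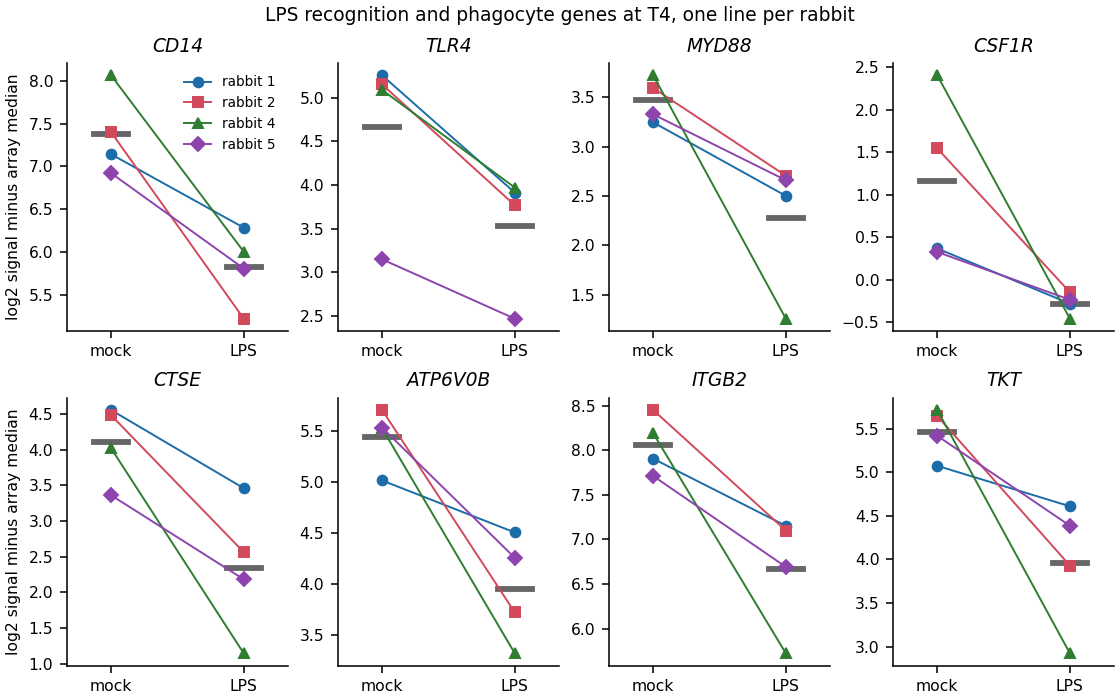
Levels of 8 genes (log2 signal minus the array median) in mock and LPS cultures at T4, with a line for each rabbit and a grey bar at the group mean. Each was lower with LPS in all 4 rabbits; rabbit 4 (triangles) had the steepest line for 6 of them, but not for CD14 and TLR4.

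Many lysosomal genes were lower with LPS. Of 31 lysosomal hydrolases and their activators, 15 were called lower and none higher, against 3.97% of all genes tested and 7.72% of genes with a symbol. The median log2 FC of the list was -0.74, with medians of -0.32, -0.84, -1.24 and -0.78 in rabbits 1, 2, 4 and 5. CTSE, the aspartic protease cathepsin E, had the largest decrease of all called genes. Its mock levels were 4.55, 4.48, 4.02 and 3.36 and its LPS levels 3.46, 2.56, 1.15 and 2.18. It was lower in each rabbit, although the LPS level of rabbit 1 was just above the mock level of rabbit 5, and the log2 FC was -1.77 ± 0.30 (SE), 3.4-fold, with an adjusted p of 0.0101.

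HEXA, the alpha chain of beta-hexosaminidase, had mock levels of 5.99, 6.43, 6.44 and 5.81 and LPS levels of 5.48, 5.14, 4.31 and 4.72, without overlap, and a log2 FC of -1.26 ± 0.20 (SE, adjusted p = 0.0101). PSAP, the precursor of the saposins, had -1.39, and ACP5, the acid phosphatase of macrophages and osteoclasts, -1.13. Cathepsins CTSB, CTSD and CTSZ were also called lower.

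Proteins of the lysosomal membrane and of its mTORC1 anchor gave 11 called lower of 17, and all of them had a negative log2 FC. LAPTM5, a lysosomal membrane protein of blood cells, had -1.23 ± 0.25 (SE, adjusted p = 0.0176), VAMP8, a SNARE of lysosome fusion, -1.10, and LAMTOR4, a subunit of the Ragulator complex, -0.65. Of 14 subunits and accessory proteins of the V-ATPase, the proton pump that acidifies lysosomes, 7 were called lower. ATP6V0B, of its membrane sector, had mock levels of 5.01, 5.70, 5.52 and 5.53 and LPS levels of 4.51, 3.72, 3.32 and 4.26, and a log2 FC of -1.49 ± 0.23 (SE, adjusted p = 0.0101) with no overlap. ATP6AP1, an accessory protein, had -1.62, ATP6V0D1 -1.37 and ATP6V0C -0.90.

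Many traffic genes were lower too. Of 25 genes of endosome and Golgi traffic, 16 were called lower, with a list median of -0.72. TGOLN2, a protein of the trans-Golgi network, had -1.31, LMAN2, a cargo receptor for glycoproteins, -0.94, AP1B1, a subunit of the AP-1 adaptor, -0.81, and the small GTPase RAB10 -0.70. Of 17 autophagy genes, 6 were called lower, among them PINK1, a kinase of mitophagy, at -1.07, and ULK1, the initiating kinase, at -0.76.

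Many genes of cell shape and adhesion were lower. Of 26 actin genes, 14 were called lower (53.8%, against 7.72% of genes with a symbol), with a list median of -0.69. FHOD1, a formin, had mock levels of 2.39, 3.09, 2.98 and 2.43 and LPS levels of 1.27, 1.21, 1.01 and 1.48, without overlap, and a log2 FC of -1.48 ± 0.26 (SE, adjusted p = 0.0127). NCKAP1L (HEM1), the WAVE complex subunit of blood cells, had -1.14, TWF2, twinfilin 2, -1.24, and MYO1F, a myosin of leukocytes, -1.18.

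Of 14 genes of leukocyte integrins and ITAM signalling, 6 were called lower and all had a negative log2 FC, with a median of -0.96. ITGB2, the beta chain of the leukocyte integrins, had mock levels of 7.91, 8.45, 8.19 and 7.71 and LPS levels of 7.15, 7.10, 5.72 and 6.69, without overlap, and a log2 FC of -1.40 ± 0.23 (SE, adjusted p = 0.0101). Its partner ITGAX (CD11c) had -1.35. TYROBP (DAP12), the ITAM adaptor of myeloid and NK cells, had mock levels of 5.64, 6.30, 6.58 and 5.59 and LPS levels of 5.08, 4.97, 4.79 and 4.58; its log2 FC was -1.18 ± 0.16 (SE), with an adjusted p of 0.00569, the smallest of all genes named here. VAV1, a guanine nucleotide exchange factor downstream of such adaptors, had -1.01.

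Several enzymes of sugar and fatty acid metabolism were lower. Of 4 pentose phosphate genes, 3 were called lower, TKT and PGD among them. TKT, transketolase, had mock levels of 5.07, 5.65, 5.72 and 5.42 and LPS levels of 4.61, 3.93, 2.92 and 4.39. The groups did not overlap, and the decrease was smallest in rabbit 1 and largest in rabbit 4, with a log2 FC of -1.5 ± 0.29 (SE, adjusted p = 0.0162). PGD, of the oxidative branch, had -1.35 ± 0.25 (SE, adjusted p = 0.0147).

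Of 12 glycolysis genes, 5 were called lower and all had a negative log2 FC, with a median of -0.64. PGAM1, phosphoglycerate mutase, had mock levels of 4.17, 4.58, 4.86 and 5.12 and LPS levels of 3.79, 3.22, 1.94 and 3.83, a log2 FC of -1.49 ± 0.31 (SE, adjusted p = 0.0177). GPI had -1.16 and HK1 -0.85. Of 9 genes of fatty acid oxidation, 6 were called lower, with ACADVL at -1.02. Of 25 oxidative phosphorylation genes, 4 were called lower (16%, against 7.72% of genes with a symbol), with a median of -0.23, which was 0.0023 with the processed signal. UQCRC1, a core protein of complex III, had -1.17, and NDUFS3, of complex I, -0.58.

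The number of called genes in these lists depended on the scaling. After quantile normalization, 12 lysosomal hydrolases, 8 lysosomal membrane genes, 5 V-ATPase genes, 12 traffic genes, 6 actin genes, 4 proteasome genes and 4 genes of LPS recognition were called lower. With the processed signal these counts were 3, 1, 2, 0, 4, 0 and 0. Without the rabbit as a block they were 11, 6, 4, 12, 11, 2 and 2, and of the genes of fatty acid oxidation 1 stayed called. Of the receptor, autophagy, glycolysis, fatty acid oxidation, myeloid factor, integrin and ITAM, pentose phosphate and oxidative phosphorylation genes, 6, 6, 5, 6, 3, 6, 3 and 4 were called lower, while the processed signal called 1, 0, 0, 0, 0, 2, 1 and 0 lower, and quantile normalization 5, 4, 4, 4, 2, 4, 2 and 2. The medians of the lists first named were -0.61, -0.76, -0.65, -0.55, -0.58, -0.33 and -0.11 after quantile normalization, and -0.68, -0.91, -0.62, -0.66, -0.58, -0.26 and -0.034 with the processed signal. Besides TLR4 and LY86, the lower genes named here whose call was lost without the rabbit as a block were IL15, IL16, IRAK1, TAB1, CSF2RB, IRF5, CEBPB, CTSB, CTSD, ATP6V0C, TGOLN2, UQCRC1, UQCRQ, NDUFS3, CHI3L1, BPI, S100A11, SERPINB1, GCLM, PSMD13, RPL4, AURKA, AURKB, MCM7, STIP1, FDFT1, RAC1, CD68, LCK, SFTPD, CAP1, JAML and RND3, with adjusted p from 0.0557 for CHI3L1 to 0.433 for GCLM.

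Some groups showed no called gene. No gene of MHC class II, MHC class I and peptide loading, complement, lipid uptake and efflux or prostaglandin and leukotriene enzymes was called by limma, with 5, 11, 7, 11 and 8 measured. Of the genes with a symbol, 7.72% were called lower and 0.264% higher. In lists this small the absence of a call is therefore no result about their genes. The MHC class II genes all had a negative log2 FC, with a median of -0.91, and their median was 0.035 in rabbit 1 against -1.26, -1.43 and -1.05 in rabbits 2, 4 and 5. Of 24 interferon response genes, SAMHD1 alone was called, and it was lower, at -1.54 ± 0.34 (SE, adjusted p = 0.021). SAMHD1 is a triphosphohydrolase that depletes deoxynucleotides in myeloid cells. The list median was 0.19, or 0.47 with the processed signal, beside 0.058 and 0.22 over all genes tested. Of 11 cytosolic ribosomal protein genes, 2 were called lower, RPL4 among them (18.2%, against 7.72% of genes with a symbol), with a list median of -0.045. Neither call held after quantile normalization, after normexp correction, with the processed signal or without the rabbit as a block.

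Of 28 proteasome genes, 9 were called lower, such as PSMD13 at -1.35 and PSMC3 at -0.80, with a median of -0.47. Of 11 inflammasome and cell death genes, BAX, TRADD, RIPK1 and CASP9 were called lower, at -1.28, -0.95, -0.79 and -0.77. Of 15 S100 and antimicrobial protein genes, 3 were called lower. CHI3L1, a chitinase-like protein of macrophages, had -1.54 ± 0.31 (SE, adjusted p = 0.0177), BPI, which binds bacterial LPS, -0.98, and S100A11 -0.93. Of 12 antioxidant and iron genes, 3 were called lower, GSTP1 at -0.87, CCS at -0.84 and GCLM at -0.81. Of 19 cell cycle genes AURKA, MCM7 and AURKB were called lower, of 8 heat shock genes BAG3 and STIP1, of 10 cholesterol synthesis genes FDFT1, and of 6 phagocyte oxidase genes RAC1. The share called lower in the lists of this paragraph ran from 10% for cholesterol synthesis to 36.4% for inflammasome and cell death, against 7.72% of genes with a symbol, and none of them was tested against that share.

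Some markers of monocytes moved with these groups. Of 12 monocyte markers measured, CD14, CSF1R, CD68 and TYROBP were called lower, all had a negative log2 FC, and the mean level over the list ran from 3.23 to 3.90 on mock arrays and from 2.67 to 3.32 on LPS arrays. Their median log2 FC was -0.67, and -0.73 after quantile normalization. In rabbits 1, 2, 4 and 5 it was -0.37, -1.07, -1.20 and -0.57. The medians of other types were -0.37 for B cells (8 genes, none called), -0.44 for dendritic cells (7, none called), -0.25 for platelets (7, none called), 0.004 for T cells (12, LCK called lower) and -0.0071 for neutrophils (8, BPI called lower). Those of NK cells and erythrocytes held no call, with 3 and 7 measured. CD14, CSF1R, CD68, TYROBP and BPI also stand in the functional lists, and the part of monocyte number in the decreases was not tested.

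**Figure D4:**
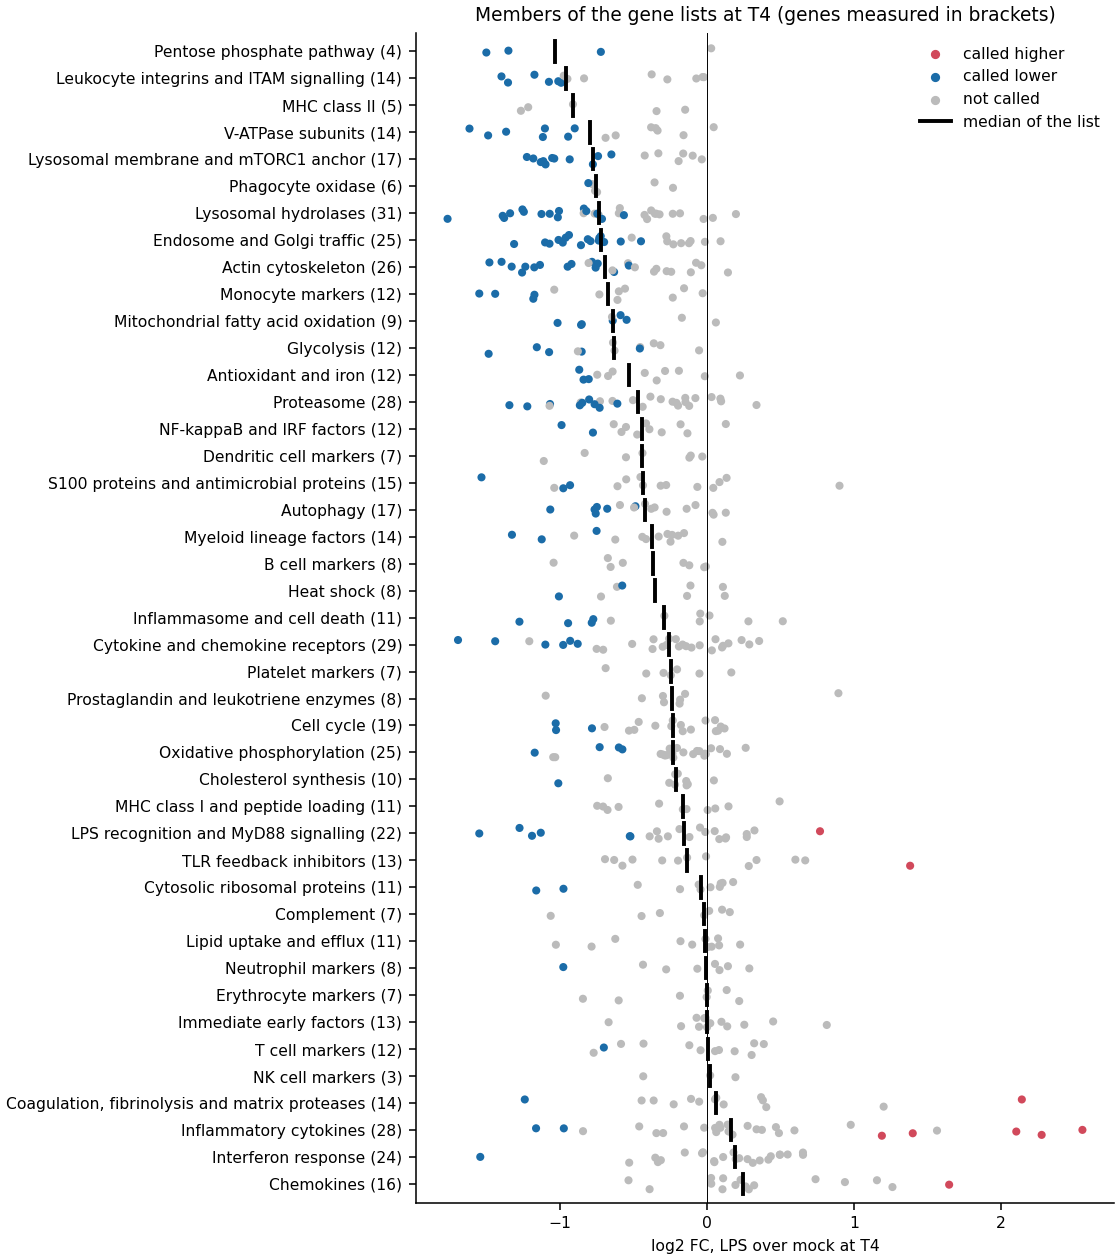
Log2 FC of LPS over mock at T4 for the measured members of each gene list, one point per gene, with a black mark at the median of the list; red points were called higher, blue points called lower and grey points not called. Lists are ordered by their median, from pentose phosphate genes at -1.04 at the top to chemokines at 0.24 at the bottom.

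The T4 changes were then set beside those at T24 in other cultures of the same rabbits. At T24, 750 genes were called (2.61%), and of the 1228 genes called at T4, 48 were called again. Of these, 10 were higher at both times, 17 were lower at both times, and 21 were lower at T4 and higher at T24. The change differed between times, by a limma test of the interaction, for 1656 genes (5.76%), in 1467 of which it was more positive at T24. The genes called at T4 were chosen on the same T4 arrays that enter this test, so that their own count in it, 694 of the 1142 lower genes with a more positive change at T24, is a description.

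**Figure D5:**
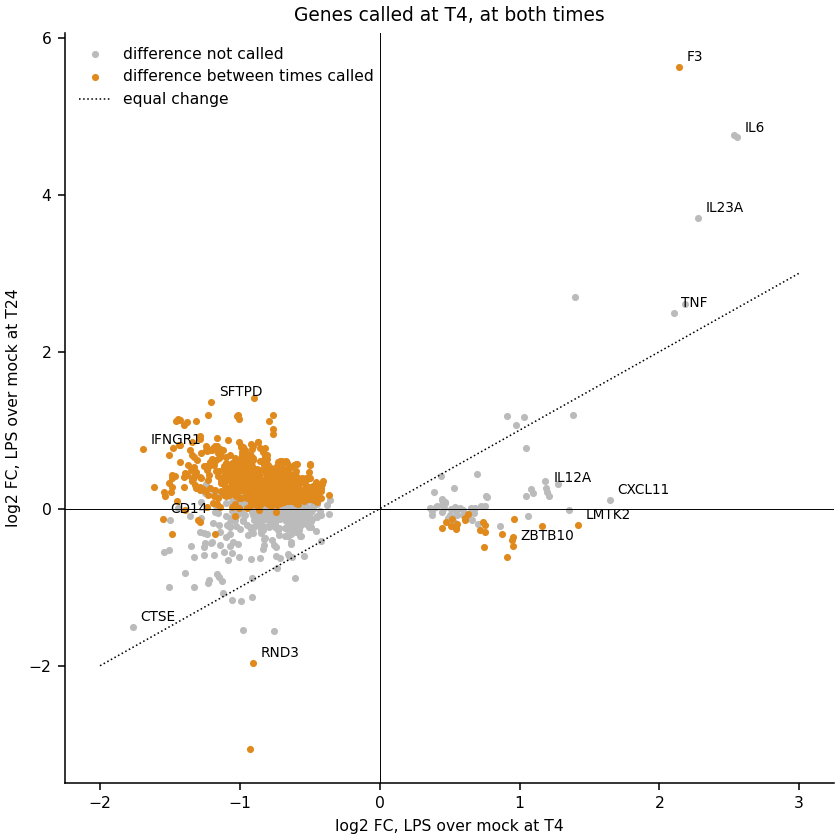
Log2 FC of LPS over mock at T24 (vertical) against T4 (horizontal) for the 1228 genes called at T4, with the dotted line at equal change; orange points have an adjusted p under 0.05 for the difference between times. Of the 1142 called lower genes, 877 lie above 0 at T24. F3, IL6 and IL23A lie above the line, but among these the difference between times passed the test for F3 alone. Points near background at T24, such as IL12A and CXCL11, are plotted at their signals.

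IL6, TNF and IL23A were higher at both times. Their log2 FC at T24 was 4.73 ± 0.53, 2.50 ± 0.41 and 3.70 ± 0.46 (SE), and the difference between times did not pass the test for any of the 3 (adjusted p = 0.0941, 0.73 and 0.222). From T4 to T24 the mean mock levels went from 5.39 to 2.42 for IL6, 8.39 to 5.15 for TNF and 3.95 to 3.15 for IL23A. The mean LPS levels went from 7.94 to 7.15, 10.49 to 7.65 and 6.23 to 6.85. F3 went from 2.14 at T4 to 5.63 ± 0.60 (SE) at T24, and this difference passed it (adjusted p = 0.0211), but at T24 only 2 of the 4 mock arrays read F3 well above background, so that the sizes of its change at T24 and of the difference are uncertain. IL1B and IL10, not called at T4, had 4.16 ± 0.74 and 4.12 ± 0.62 (SE) at T24, with adjusted p of 0.0155 and 0.0205 for the difference between times. For IL1B the mean mock level went from 9.25 at T4 to 5.45 at T24, and the mean LPS level from 8.79 to 9.61. For IL10 the mean mock level went from -0.018 to 0.37, and the mean LPS level from 0.47 to 4.49. CXCL11 and IL12A were called at T4, but at T24 they were well above background on only 1 and 0 of the 4 mock arrays and on 2 LPS arrays each, so that no change at T24 is given for them.

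LMTK2 and ZBTB10 were called at T4 and not at T24, with log2 FC of -0.20 and -0.47 at T24 and adjusted p of 0.00733 and 0.00713 for the difference. KANSL1L and TRIM69 showed the same order, with 0.75 and 0.55 at T4 and -0.49 and -0.19 at T24, although their calls at T4 were lost without the rabbit as a block (adjusted p = 0.081 and 0.152) and KANSL1L was well above background on only 2 mock and 2 LPS arrays at T4. CHL1 was called higher at T4, but it was well above background on 0 mock arrays and 1 LPS array then and on 0 of the 8 arrays at T24, so that no fold and no change between times are given for it. RND3, an atypical small GTPase, had a log2 FC of -0.91 ± 0.18 (SE) at T4 and a further decrease, -1.97 ± 0.18 (SE), at T24. It was the only one of the named lower genes with a larger decrease at T24 for which the difference between times passed the test (adjusted p = 0.0206). BPI, at -1.55, and IRF5, at -1.17, were also further below 0 at T24 than at T4, with adjusted p of 0.434 and 0.793 for the difference.

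CD14, TLR4 and MYD88 were called lower at T4 and not at T24. They had log2 FC of -0.13, 0.37 and 0.073 at T24, and the adjusted p of the difference between times was 0.0262, 0.00713 and 0.0255. IFNGR1 had 0.75 at T24, and SPI1 0.21, with adjusted p of 0.0118 and 0.0156 for the difference. CTSE, IRF5 and ACP5 were called lower at T24 as well, at -1.5, -1.17 and -0.92, and for none of them did the difference pass the test. For CSF1R, with 0.011 at T24, it just missed the threshold (adjusted p = 0.0547).

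Genes whose change turned between the times included SFTPD, a collectin that binds microbial sugars, MPP1, a membrane scaffold protein, CAP1, a regulator of actin turnover, and JAML, a junctional adhesion molecule of leukocytes. Their log2 FC was -1.21, -1.43, -1.40 and -1.23 at T4 and 1.36, 1.13, 1.07 and 1.20 at T24. SFTPD was called at T24 (adjusted p = 0.0269), while the other 3 were not. By list, the difference between times was called for 10 of 15 S100 and antimicrobial protein genes, 16 of 28 proteasome genes, 8 of 14 integrin and ITAM genes, 14 of 26 actin genes and 7 of 14 V-ATPase genes, which were the largest shares of any list, and for 6 of 31 lysosomal hydrolases, against 5.76% of all genes tested and 9.7% of genes with a symbol. The lysosomal hydrolases had a median log2 FC of -0.11 at T24, the V-ATPase genes 0.27 and the actin genes 0.27. Without rabbit 2 the difference between times was called for 56 genes, without rabbit 5 for 315 and without rabbit 4 for 749, and without the rabbit as a block for 560.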

How the data were processed

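Members, gene lists, tests and alternatives were chosen with earlier results of these data known. Groups and rabbit numbers came from the sample titles. The authors scanned one-colour Agilent arrays and extracted them with Agilent Feature Extraction 10.7.3.1, and deposited the spot intensity of each array, with flags for outlier spots and for spots well above background. The authors also deposited a log2 table, which differs from log2 of the median intensity by a constant for each array.

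Here, the median intensity of 61657 non-control spots was taken to log2 and centred on the array median over these spots. Outlier spots were then left out, and spots of a probe were averaged. This gave 42089 probes of 28890 genes, of which 9503 had a symbol, from RefSeq accessions and gene numbers (assembly mOryCun1.1), the study's own gene list or the files; identifiers without a symbol may repeat a named gene. The 28774 genes without a missing value were fitted in limma 3.58.1 (R 4.3.3) with a mean for each of 6 groups over all 24 arrays and the rabbit as a block, which left 15 residual degrees of freedom; p-values were adjusted by Benjamini-Hochberg. The rabbit number marks the same animal, and what remained of each array after its group mean correlated at a median r of 0.228 over 60 pairs of one rabbit and -0.0753 over 180 pairs of different rabbits. The study's methods used no block. A gene was well above background on an array if most of its probes were. Bounds used the lowest signal well above background. Precision is limited by how many arrays there were.

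Named genes were the 12 most raised and the 12 most lowered of the called genes that had a symbol, one direction in all 4 rabbits and signals well above background on each array of the brighter group, up to 4 called genes per list by adjusted p, a set of LPS response genes, and the 6 largest differences between times each way; other genes were named after their values were seen. Array weights, other scalings and filters, other blocks, fewer arrays, trend and robust moderation, single probes, a required FC of 1.5 and leaving out each rabbit were alternatives. The steps were tested on simulated data. Python 3.11.15, numpy 2.4.6, pandas 2.3.3 and matplotlib 3.10.9 were used for tables and plots. PMA-Ionomycin arrays entered the spread, the mean level behind the brightness bins and the correlations between arrays of one rabbit and of different rabbits. A few items are not reported here.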

Additional observations from a re-analysis of the deposited data

Results flagged for a closer look

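For the named genes and 4 array measures, 238 groups of 4 samples were searched for a sample that stood apart, by the gap to its nearest neighbour as a share of the range (Dixon's ratio), and 13 passed the 95% critical value, near the 1 in 20 that chance gives. The LPS culture of rabbit 4 was far below the other LPS cultures for IFNGR1 (0.882), MYD88 (0.859), RIPK1 (0.917), PINK1 (0.956) and LCK (0.845). Rabbit 5 was far below the others for TLR4 in both mock (0.921) and LPS cultures (0.865), and for GCLM (0.836) and CCL4 (0.876) with LPS. Among mock cultures, rabbit 1 was far below for ATP6V0D1 (0.861) and rabbit 4 for VAV1 (0.882), while rabbit 4 was far above for ITGAX (0.856) and rabbit 5 for UQCRQ (0.877).

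The LPS effect differed between the times for 17 of the response genes and of the genes named for that difference that were well above background on some arrays at both times, by the limma interaction. The log2 FC at T24 minus that at T4 was 4.63 for IL1B, 3.63 for IL10, 3.49 for F3, 2.57 for SFTPD, 2.56 for MPP1, 2.47 for CAP1, 2.45 for IFNGR1, 2.42 for JAML, 1.5 for TLR4, 1.43 for CD14, 1.33 for SPI1 and 1.26 for MYD88. It was -1.62 for LMTK2, -1.42 for ZBTB10, -1.23 for KANSL1L, -1.06 for RND3 and -0.74 for TRIM69. At T24, F3 was well above background on only 2 of the 4 mock arrays and IL10 on 3, so that the sizes of their differences are uncertain.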

How the results depend on the processing

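Of 1228 genes called at T4, 86 higher and 1142 lower, the fit with no replicate block called 295 (16 and 279), and its interaction 560 genes against 1656. The processed signal called 71 (18 and 53; interaction 601), normexp 731 (137 and 594) and array weights 3738 (980 and 2758; interaction 5672). Quantile normalization called 195 higher and 649 lower, and the rabbit and slide as blocks 161 higher. The replicate block on only the 8 arrays called 0 genes either way, 0 higher and 0 lower, by limma, with 4310 at an unadjusted p under 0.05. Leaving out 1 rabbit gave 0 to 1466 calls at T4, 0 to 95 higher and 0 to 1371 lower, and 56 to 1401 for the interaction. A required FC of 1.5 left 54 higher genes. The other alternatives, the 16 LPS and mock arrays (1555 calls, chosen after seeing the data) among them, stayed within 1.5 times. The cause of these shifts was not tested. Of the 90 named lower genes, 52 stayed called without the block, 74 after quantile normalization and 16 with the processed signal, and of the 16 named higher genes 5, 14 and 4. The log2 FC of LY96 turned to 0.11 with array weights, and no other named gene changed sign in any alternative. Most named genes were chosen as called on the same arrays, which largely fixes their sign. Signal over background limits what can be said of genes near level 0 and below.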

Other observations

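Some called genes were picked out here after their values were seen, the first 3 of which stand in no list. ANXA2, an annexin of membranes and plasminogen binding, had a mean level of 7.54 in mock and 6.11 in LPS cultures, a log2 FC of -1.43 ± 0.34 (SE; limma adjusted p = 0.0237) with a decrease in 3 of 4 rabbits, and 0.82 at T24. SERINC5, a membrane protein that restricts retroviruses, had 5.50 in mock and 6.20 in LPS cultures, and OSMR, the oncostatin M receptor, 0.91 and 1.42, both higher in all 4 rabbits but not called without the rabbit as a block. C5AR1, the receptor of the complement fragment C5a, had a log2 FC of -0.93 at T4 and 0.58 at T24, where it was not called, and the difference between times passed the test (adjusted p = 0.00733).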
